A study of Arabidopsis thaliana with 3 samples.

Results

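Transfer RNA (tRNA) genes encode the small adaptor RNAs that carry amino acids to the ribosome. They are transcribed by RNA polymerase III from promoter elements that lie inside the gene itself, with the help of the factors TFIIIC and TFIIIB, and the transcript is then trimmed by RNase P and RNase Z, modified and loaded with its amino acid. Most are scattered as short single genes between protein-coding genes, and in Arabidopsis some are repeated in long tandem arrays. The tRNA genes described here were all genes of type tRNA on chromosomes 1 to 5 in the RefSeq gene table of assembly TAIR10.1, 625 of 37899 nuclear genes. Their annotated lengths ran from 69 to 90 bp with a median of 73 bp, and all but 2 carry in the table the name of their amino acid.

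BDH1 is an Arabidopsis thaliana BCL-domain homolog protein that the study's title ties to the SWI/SNF complex, a chromatin remodeller that moves or evicts nucleosomes. Its binding was profiled by chromatin immunoprecipitation and sequencing (ChIP-seq), using an anti-FLAG antibody on inflorescences of soil-grown, long-day plants. The 3 samples were 2 of genotype bdh1-1 BDH1-FLAG, which are mutant plants that carry the tagged protein, and 1 of wild-type plants without it, whose values were not analysed here. How many plants or transgenic lines stood behind each sample is not given, nor is the promoter of the transgene. As the same antibody's signal in wild type is not used here, signal that does not depend on the tag was not assessed at any tRNA gene. Replicate 1 has a list of 16653 peaks and replicate 2 one of 16413, and the read depth behind them is unknown. Below, a gene has a peak if an interval shares at least 1 bp with it in each of the 2 lists.

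A BDH1-FLAG peak in both lists lay on 127 of the 625 tRNA genes, or 20.3% (exact 95% interval 17.2% to 23.7%), against 36.6% of all other nuclear genes (36.3% with tRNA genes included) and 45.4% of protein-coding genes. tRNA genes are far shorter than most of these. A further 87 tRNA genes had a peak in a single list and 411 in neither. Replicate 1 alone gave 153 tRNA genes (24.5%) and replicate 2 alone 188 (30.1%), a mean of 27.3% ± 3.96 (SD, n = 2), where 39.4% and 40.1% of all nuclear genes were called. All such intervals cover counting error only, and genes that share a peak make them too narrow. Surroundings divided the tRNA genes. Those with another tRNA gene within 1000 bp were called arrayed, those with a protein-coding gene within 500 bp were called near coding, and those with neither were called isolated.

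Of the 413 tRNA genes that stood alone near a protein-coding gene, 115 had a peak (27.8%, exact 95% interval 23.6% to 32.4%). Among the 62 isolated tRNA genes 6 did (9.68%, interval 3.63% to 19.9%), and among the 42 arrayed genes near a protein-coding gene 6 did as well (14.3%, interval 5.43% to 28.5%). All 6 of these arrayed genes lay in arrays of 2 genes, which hold 18 of the 42. None of the 108 arrayed genes away from protein-coding genes had a peak in either list. That count allows a share of up to 2.78% by the limit of 3 counts, and the exact interval reaches 3.36%. Of these genes 81 form a single array, so they are not independent cases and both limits are too narrow. The order of the classes was the same in each list alone: single genes near coding stood at 33.4% in replicate 1 and 41.6% in replicate 2, arrayed genes near coding at 16.7% and 19.0%, isolated genes at 12.9% in both and the remaining arrayed genes at 0. The intervals of the isolated genes and of the arrayed genes near coding overlapped widely, so these classes were not told apart.

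**Figure D1:**
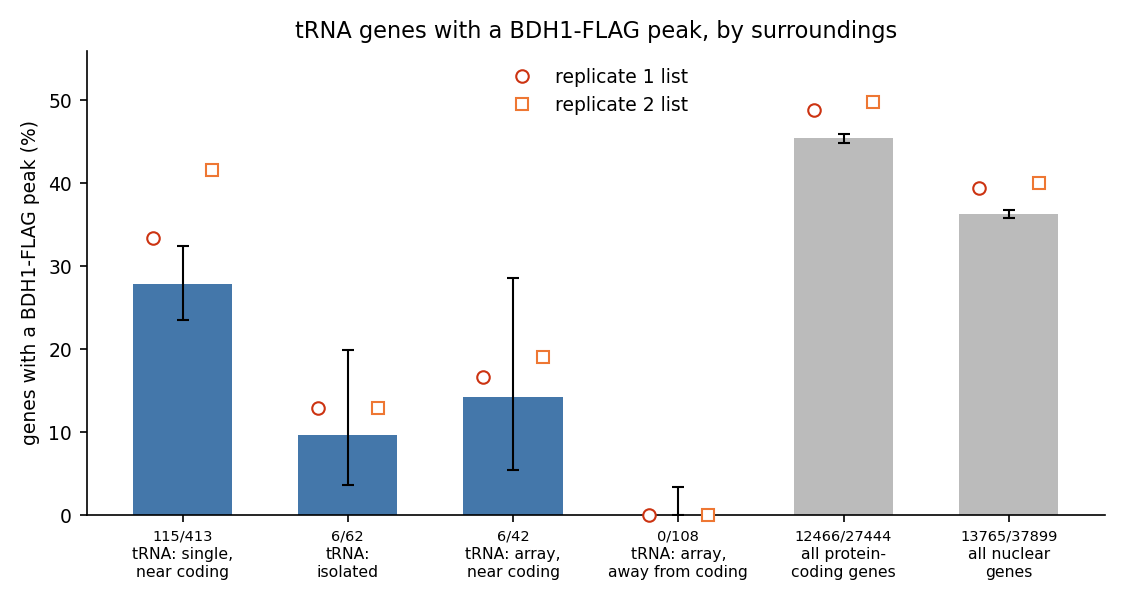
Percentage of genes with a BDH1-FLAG peak for the 4 classes of tRNA genes (blue) and for all protein-coding and all nuclear genes (grey). Bars count genes with a peak in both lists with the exact 95% interval, open circles and squares give the lists of replicates 1 and 2 alone, and the counts stand under the bars. Single tRNA genes near coding reach 27.8% and arrayed genes away from coding stay at 0 of 108.

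Stricter rules changed the level, and the summit rule left single genes near coding and isolated genes nearly level. With a −log10 q of 5 or more in both lists, 88 tRNA genes kept a call (14.1%), against 24.2% of all nuclear genes, and at 10 or more it was 48 (7.68%), against 7.65%. Where 50% of the gene had to be covered, 104 tRNA genes were called (16.6%), against 6.56% of all nuclear genes, a rule that favours short genes. A summit within 100 bp of the gene was found for 24 (3.84%), against 32.9%. Under all 4 rules single genes near coding had the highest share, from 5.08% with the summit rule to 22.8% with the coverage rule, and arrayed genes away from coding had no peak. With the summit rule isolated genes stood close behind, at 4.84% (3 of 62), and arrayed genes near coding had none either (0 of 42).

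The longest array had no peak. It runs from AT1G56730 to AT1G57530 on chromosome 1, where 81 genes in 27 repeats of the order serine, tyrosine, tyrosine fill 39685 bp with a median spacing of 373 bp, and it makes up 13.0% of all tRNA genes. No protein-coding gene lies within it, no peak of either list touches it, and the nearest peak was 2389 bp away in replicate 1 and 2665 bp in replicate 2. The proline arrays of 5 or more genes had no peak either. The array of 11 proline genes that starts at AT1G28820 had its nearest peak 9243 bp away in replicate 1 and 1106 bp in replicate 2. The arrays that start at AT1G28930 (6 proline genes) and AT1G28770 (5) on chromosome 1 and at AT2G33890 (9) on chromosome 2 also had no peak.

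The sixth array of 5 or more genes, which starts at AT2G07759 on chromosome 2 and mixes 6 genes for 5 amino acids, lay far from any peak, at 171981 bp in replicate 1 and 171994 bp in replicate 2. The array of 3 genes that starts at AT2G07752 on the same chromosome had its nearest peak 246284 bp away in replicate 1 and 245925 bp in replicate 2. All 6 genes of the array at AT2G07759 and all 9 of the array at AT2G33890 lay within 500 bp of a protein-coding gene. Together the 6 large arrays hold 118 genes, and the 4 arrays of 3 or 4 genes hold another 14, and none of these had a peak in either list. The peaks on arrayed genes fell on pairs: of the 9 pairs, 5 had a peak in both lists, on 6 of their 18 genes. AT1G17660 (aspartate) and AT1G17670 (valine) shared a single peak whose fold enrichment was 2.51 in replicate 1 and 2.54 in replicate 2, and no other peak of either list held more than 1 of the 127 tRNA genes. Copies within an array can be nearly identical, and reads from them may have been dropped or split. The read filters are not given in the sources used here, and their part in the empty arrays was not tested. Sequence that tRNA genes of any class share with other parts of the genome or with organelle DNA was not examined either.

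Single tRNA genes within 100 bp of a protein-coding gene had a peak more often than those farther away, without a steady fall. A peak lay on 13 of 43 that overlap a protein-coding gene (30.2%, interval 17.2% to 46.1%). With a gap of up to 50 bp the count was 32 of 109 (29.4%, interval 21.0% to 38.8%). With a gap of 51 to 100 bp it was 42 of 101 (41.6%, interval 31.9% to 51.8%). These intervals overlapped. The share was 21.9% (21 of 96, interval 14.1% to 31.5%) at 101 to 200 bp and 7.89% (3 of 38) at 201 to 300 bp. Beyond that, 4 of 26 genes at 301 to 500 bp, 1 of 33 at 501 to 1000 bp and 5 of 29 farther away had a peak, counts too small to order. Single genes with protein-coding genes close by in greater number had a peak more often: 72 of 190 with 2 or more within 500 bp (37.9%, interval 31.0% to 45.2%), against 43 of 223 with 1 (19.3%, interval 14.3% to 25.1%).

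Peaks on single tRNA genes and on their neighbours were often the same intervals. Where the nearest protein-coding gene itself had a peak in both lists, 108 of 273 single tRNA genes near coding did too (39.6%, interval 33.7% to 45.6%). Where that gene had none, 7 of 140 tRNA genes did (5.00%, interval 2.03% to 10.0%). For 88 of the 108 the tRNA gene's own peaks also overlapped that neighbour in both lists, so one interval gave both calls and the split is in large part fixed by the overlap rule. The neighbours in turn carried peaks often. Of the 613 protein-coding genes within 500 bp of a tRNA gene, 391 had a peak in both lists (63.8%, interval 59.8% to 67.6%), against 45.0% of the 26831 protein-coding genes farther from tRNA genes. In single lists the values were 67.5% against 48.4% in replicate 1 and 71.9% against 49.3% in replicate 2. This gap was larger than the spread between the lists. That spread covers calls on the same genes and does not measure differences between sets of genes. Expression and length of these neighbours were not compared, and no test of the difference was run.

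Coverage was also counted base by base. Of all bases of tRNA genes outside arrays, 21.3% lay in a peak of both lists. Other bases of the chromosomes at the same distances from protein-coding genes were covered to 4.16%. In replicate 1 the values were 25.9% for tRNA genes and 6.71% for other bases, and in replicate 2 they were 34.9% and 6.23%. At 1 to 100 bp from a protein-coding gene, 30.6% of tRNA bases were covered, against 5.35% of other bases. At 101 to 200 bp the values were 23.7% and 3.50%, at 201 to 300 bp 13.5% and 3.04%, and at 301 to 500 bp 10.3% and 2.68%. At 501 to 1000 bp the order turned, with 0.915% of tRNA bases and 2.23% of other bases, though not in replicate 1 alone (6.44% and 3.95%) or replicate 2 alone (6.44% and 3.19%). Farther out 15.1% of tRNA bases were covered, against 0.663% of other bases, but these are 2321 bp of few genes.

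In a match chosen after seeing the data, the other bases were weighted as well for protein-coding genes within 500 bp on both sides or not, and for a peak in the nearest protein-coding gene. The 21.3% of tRNA bases then stood beside 6.59% of other bases, and no test of the difference was run. In the stratum with most tRNA bases, 1 to 100 bp from a protein-coding gene with a peak and with another protein-coding gene on the far side, 45.4% of tRNA bases and 13.9% of other bases were covered. In arrays 3.18% of tRNA bases lay in a peak of both lists and 2.25% of other bases at the same distances. In replicate 1 the order was reversed, at 3.36% and 3.40%. Most array bases, 8213 of 11884 bp, lay more than 1000 bp from a protein-coding gene, and none of these was covered. In both lists, 14.8% of array bases were covered at 1 to 100 bp, 20.4% at 101 to 200 bp and 36.9% at 201 to 300 bp. Other bases had 5.35%, 3.50% and 3.04% there. Inside protein-coding genes the order turned (5.71% and 10.0%), and from 301 to 1000 bp no array base was covered. These classes hold few bases of few genes. Coverage of tRNA genes outside arrays was thus higher in replicate 2 than in replicate 1, while that of other bases at the same distances was slightly lower.

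**Figure D2:**
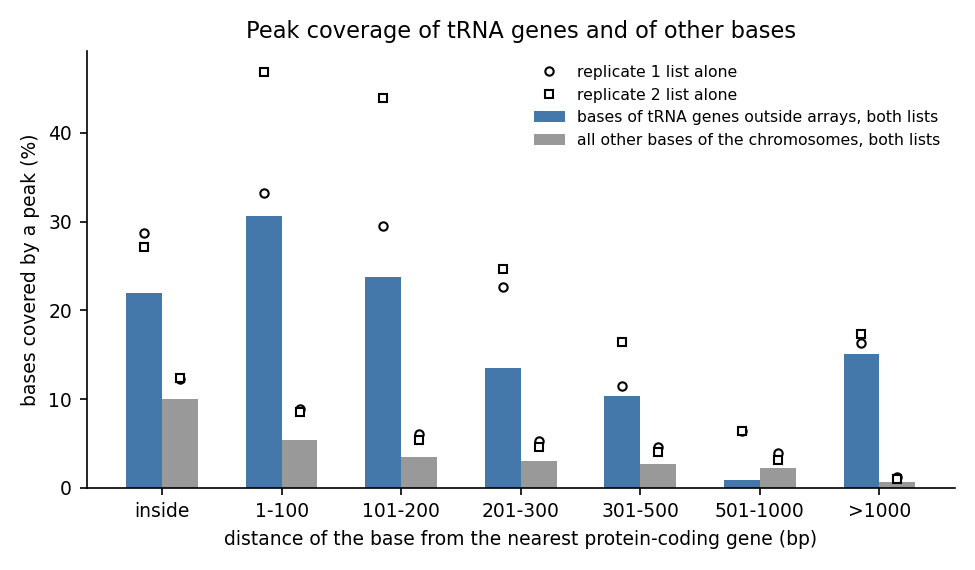
Percentage of bases covered by a BDH1-FLAG peak, by distance of the base from the nearest protein-coding gene, for bases of tRNA genes outside arrays (blue) and all other bases of chromosomes 1 to 5 (grey). Bars count bases covered in both lists, and circles and squares give the lists of replicates 1 and 2 alone. At 1 to 100 bp the tRNA bases reach 30.6% and the other bases 5.35%.

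Seen along the chromosome, coverage under peaks of both lists did not centre on the tRNA gene, but the lists differed. The 370 single tRNA genes near coding that do not overlap a protein-coding gene were turned so that the nearest one lay on the same side. At their centres 22.7% were covered in both lists. Coverage was 30.3% at 200 bp toward the protein-coding gene, was highest, at 32.7%, 320 bp toward it, and was 13.8% at 200 bp on the far side. Replicate 1 alone had 26.8% at the centre and its highest value, 37.0%, 350 bp toward the protein-coding gene. Replicate 2 alone had 38.6% at the centre, its highest value, 42.4%, at 70 bp, 40.0% at 200 bp and 37.0% at 300 bp, so its highest coverage lay closer to the tRNA gene than in replicate 1. Aligned instead at the end of the protein-coding gene that faces the tRNA gene, coverage reached 35.5% at 240 bp inside the gene and was 27.9% at the end itself and 23.3% at 100 bp outside. The other ends of the same 369 genes had 27.1% at their highest point, 8.67% at the end and 7.59% at 100 bp outside. Both ends of all other protein-coding genes had 20.9% at their highest point, 7.72% at the end and 6.03% at 100 bp outside. The gap between ends that face a tRNA gene and the ends of all other genes was thus wider at the end and 100 bp outside it, where the tRNA gene lies, than at the highest point inside. The table gives no strand, so it is not known whether these ends are starts or ends of transcription.

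**Figure D3:**
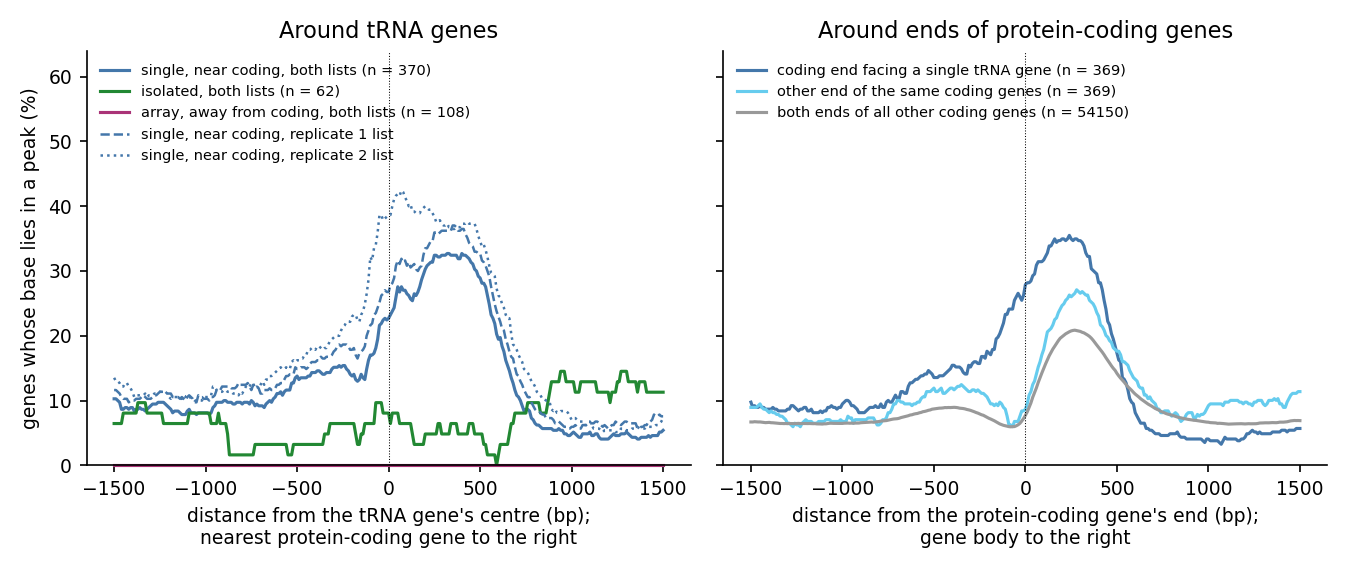
Left, percentage of tRNA genes whose base at each distance from the gene's centre lies in a peak of both lists (solid lines, 3 classes) or of 1 list (broken lines, single genes near coding), with the nearest protein-coding gene on the right. Right, the same for both lists around ends of protein-coding genes, with the gene body on the right. Single tRNA genes near coding reach 32.7% on the side of the protein-coding gene in both lists and 42.4% at 70 bp in replicate 2 alone, and protein-coding ends that face a tRNA gene stay covered outside the gene, with 23.3% at 100 bp against 6.03% at the ends of all other genes.

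Peaks on tRNA genes called in both lists were wider and somewhat higher by median than other peaks found in both. In replicate 1, 127 distinct peaks touched the 127 genes, and in replicate 2, 126 did. As a call in both lists favours strong peaks, they were set beside the peaks on no tRNA gene that overlap a peak of the other list, 13952 in replicate 1 and 14068 in replicate 2. The median width was 619 bp on tRNA genes and 498 bp for those others in replicate 1, and 717.5 bp and 506 bp in replicate 2. The median of the authors' fold enrichment, a linear ratio at the peak, was 2.51 on tRNA genes and 2.34 for the others in replicate 1, and 2.67 and 2.30 in replicate 2. Peaks on tRNA genes called in a single list were lower, with a median of 2.21 over 26 genes in replicate 1 and 2.11 over 61 genes in replicate 2. All peaks on no tRNA gene had 2.25 and 2.23. Most of those, 13952 of 16500 in replicate 1 and 14068 of 16228 in replicate 2, overlap a peak of the other list. Other peaks found in a single list were not set beside them.

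Wide peaks are more likely to reach a tRNA gene from a protein-coding gene, so height and width are not independent of the overlap rule. The threshold of 10 for the −log10 q was passed by 53 of the 127 tRNA peaks in replicate 1 (41.7%), against 26.8% of the others found in both lists, and by 66 of 126 in replicate 2 (52.4%), against 22.2%. Among the 1000 highest peaks by fold enrichment, ties kept, were 17 of the 127 in replicate 1 (13.4%), against 7.05% of the others, and 28 of 126 in replicate 2 (22.2%), against 6.89%. No test of these differences was run.

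The tRNA gene mostly lay in the flank of its peak. It was covered in full in 100 of 127 cases in replicate 1 and in 119 in replicate 2. The summit, the highest point of the peak, was a median of 171 bp from the tRNA gene in replicate 1 and 192 bp in replicate 2. It lay in a protein-coding gene for 86 of the 127 tRNA genes in replicate 1 and for 87 in replicate 2, and for 75 in both. It fell inside the tRNA gene for 10 in replicate 1 and 5 in replicate 2, and for 2 in both lists. In 104 of the 127 cases (81.9%, interval 74.1% to 88.2%) the peaks of both lists also overlapped a protein-coding gene, and in 15 neither did. Of all peaks, 86.6% in replicate 1 and 88.4% in replicate 2 overlap a protein-coding gene.

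The highest peaks on tRNA genes all had their summits in protein-coding genes: this held for each of the 10 with the highest mean fold enrichment, in both lists. The first was AT5G60285, a leucine tRNA gene 43 bp from AT5G60280. Its peak lay at chr5:24262062-24263185 in replicate 1 (coordinates of the authors' lists, TAIR10, 1-based) and at chr5:24262028-24263170 in replicate 2. The fold enrichment was 4.03 in replicate 1 and 4.66 in replicate 2, where the peak ranked 6 of the whole list. It covered the tRNA gene in full and reached AT5G60280 and AT5G60290 on either side.

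AT2G47100, an alanine tRNA gene, lay in a peak at chr2:19343831-19345584 in replicate 1 (fold enrichment 4.11) and at chr2:19343984-19345427 in replicate 2 (4.16). This peak also held UBQ6 (AT2G47110), which encodes ubiquitin fused to a ribosomal protein. AT5G45745, a glycine tRNA gene, shared its peak with RABA1c (AT5G45750), a small GTPase of membrane traffic. That peak lay at chr5:18558765-18560049 in replicate 1 (fold enrichment 4.15) and at chr5:18558827-18559896 in replicate 2 (3.64). AT1G11640, a tryptophan tRNA gene, shared its peak with RBP45B (AT1G11650), an RNA-binding protein. It lay at chr1:3914610-3915256 in replicate 1 (fold enrichment 3.94) and at chr1:3914595-3915575 in replicate 2 (3.71).

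The next 6 ranged from 3.17 to 3.88 in replicate 1 and from 3.15 to 3.73 in replicate 2. AT1G77190 (serine) lay beside SKIP, a splicing factor, with 3.88 in replicate 1 and 3.25 in replicate 2. AT1G80430 (serine) overlapped ATXRCC1, a DNA repair gene, with 3.55 and 3.15. AT2G22110 (valine) and AT1G18430 (aspartate) lay beside genes that the table gives no name, and AT5G59945 (valine) overlapped one. AT1G75650 (glutamate) lay in a broad peak of 3562 bp in replicate 1 and 2716 bp in replicate 2. At the low end stood AT5G14035 (lysine), with 2.08 in replicate 1 and 1.53 in replicate 2. Over the 127 genes the fold enrichment of the lists correlated with a Pearson r of 0.763 and a Spearman rho of 0.754, where the points share neighbouring genes and the same peak caller, and 20 genes were above 3 in both.

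**Figure D4:**
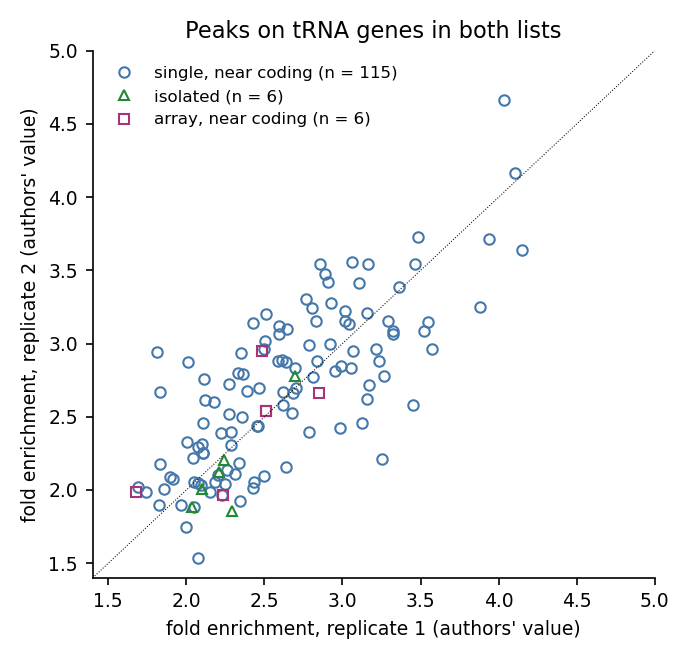
Authors' fold enrichment of the peak on each of the 127 tRNA genes with a peak in both lists, replicate 1 across and replicate 2 up, with the line of equal values. Symbols mark the class of the gene, and the pair AT1G17660 and AT1G17670, which share a peak, coincide at 2.51 and 2.54. The isolated genes all lie below 2.80 on both axes.

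The 6 isolated tRNA genes with a peak are the cases farthest from any protein-coding gene, at 974 to 1801 bp. None of their peaks held another annotated gene in both lists, and in replicate 1 none reached a protein-coding gene. AT4G36245, a proline tRNA gene 974 bp from GATA7, a GATA-type transcription factor gene, had its summit inside the tRNA gene in replicate 1 and 67 bp away in replicate 2. That peak lay at chr4:17149382-17149581 in replicate 1 (fold enrichment 2.21) and at chr4:17149282-17149594 in replicate 2 (2.13). AT4G39195 (tyrosine) had its summit 75 bp away in replicate 1 and 3 bp away in replicate 2, in a peak at chr4:18254886-18255286 in replicate 1 (fold enrichment 2.10) and at chr4:18254898-18255187 in replicate 2 (2.00).

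AT1G04320 (glycine), 1209 bp from the ethylene receptor gene ERS2, had a fold enrichment of 2.240 in replicate 1 and 2.203 in replicate 2. AT2G42420 (glycine), near the zinc finger gene ZFP11, had 2.03 and 1.88, and AT5G65305 (methionine) had 2.29 and 1.85. These values lie close to the median of all peaks or below it. The highest was AT3G52285 (proline), 1022 bp from IQD3, with 2.70 in replicate 1 and 2.78 in replicate 2. Its peak was 649 bp wide in replicate 1, with the summit 26 bp from the tRNA gene, and 1687 bp wide in replicate 2, where it reached a protein-coding gene and had its summit there.

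All 20 amino acids were represented among the tRNA genes with a peak. Outside arrays the share ran from 12.5% for cysteine (1 of 8) and 14.3% for tryptophan (2 of 14) to 35.3% for glutamine (6 of 17), 35.7% for asparagine (5 of 14) and 40.9% for isoleucine (9 of 22). The exact interval of each of the 20 held the value of all tRNA genes outside arrays, 25.5%, so no amino acid stood apart at these numbers. With arrays included, tyrosine had the lowest share, 3 of 75 (4.00%), followed by cysteine (1 of 15) and proline, 8 of 66 (12.1%), whose genes make up most of the large arrays together with serine, 9 of 64 (14.1%). Outside arrays tyrosine stood at 3 of 18 (16.7%), proline at 8 of 25 (32.0%) and serine at 9 of 35 (25.7%).

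**Figure D5:**
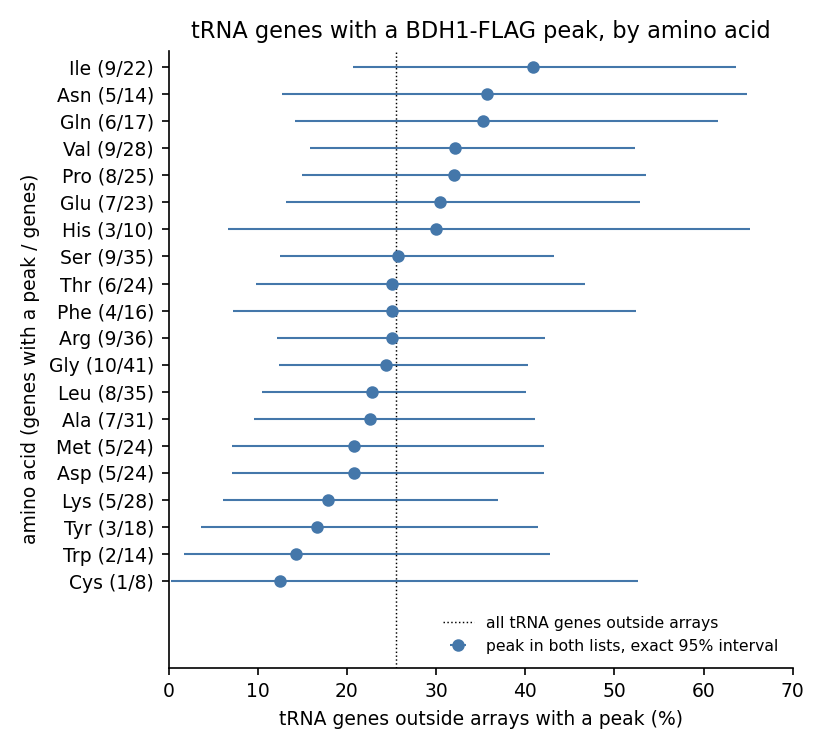
Percentage of tRNA genes outside arrays with a BDH1-FLAG peak in both lists, by amino acid, with the exact 95% interval and the counts beside each name. The dotted line marks all tRNA genes outside arrays, 25.5%, and every interval crosses it.

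By chromosome, 33 of 238 tRNA genes had a peak on chromosome 1, 13 of 95 on chromosome 2, 29 of 92 on chromosome 3, 19 of 77 on chromosome 4 and 33 of 123 on chromosome 5. Outside arrays the shares were 24.6%, 16.9%, 31.8%, 24.0% and 27.7% in that order, with overlapping intervals.

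Other short RNA genes were set beside tRNA genes in the same surroundings, with arrays formed by genes of the same type. Single tRNA genes near coding stood at 27.8%, small nuclear RNA (snRNA) genes at 36.4% (20 of 55), small nucleolar RNA (snoRNA) genes at 42.4% (25 of 59) and microRNA genes at 16.9% (24 of 142). Isolated tRNA genes stood at 9.68%, isolated snRNA genes at 1 of 11, isolated snoRNA genes at 4 of 12 and isolated microRNA genes at 13.5% (19 of 141). In arrays away from protein-coding genes no tRNA gene of 108 had a peak, while 80 of 106 snoRNA genes did (75.5%, interval 66.2% to 83.3%). No microRNA gene of 20 had one there, which allows up to 15%, and no snRNA gene of 4, too few to place. Members of a snoRNA array can share a peak, as they lie close together. No test of these differences was run.

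Genes for the making of tRNA were looked at as well. Of 14 listed genes of RNA polymerase III and tRNA maturation, 7 had a peak in both lists (50%, interval 23.0% to 77.0%), close to the 45.4% of all protein-coding genes. They were NRPC1 (AT5G60040), the largest subunit of RNA polymerase III, the RNase P gene PRORP1 (AT2G32230), the RNase Z genes TRZ3 (AT1G52160) and TRZ4 (AT3G16260), the tRNA ligase gene RNL (AT1G07910), and La1 (AT4G32720) and La2 (AT1G79880), whose proteins belong to a family that binds new RNA polymerase III transcripts. NRPC1 had a fold enrichment of 1.96 in replicate 1 and 2.87 in replicate 2, and TRZ4 had 2.95 and 2.61. A peak in a single list lay on AT2G45100, TRZ1 (AT1G74700), TRZ2 (AT2G04530) and PSD (AT1G72560), the exporter of tRNA from the nucleus, and none on NRPC2 (AT5G45140), PRORP2 (AT2G16650) and PRORP3 (AT4G21900).

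Of 10 aminoacyl-tRNA synthetase genes found by symbol or synonym in the table, 5 had a peak in both lists (50%, interval 18.7% to 81.3%). These were SRS (AT1G11870), ATKRS-1 (AT3G11710), HRS1 (AT3G46100), OVA6 (AT5G52520) and ERS (AT5G64050), whose fold enrichment of 2.99 in replicate 1 and 2.73 in replicate 2 was the highest of the 5 in each list. TWN2 (AT1G14610), OVA5 (AT3G13490) and EDD1 (AT3G48110) had a peak in replicate 2 alone, and ALATS (AT1G50200) and NS2 (AT3G07420) in neither list. Both gene groups stood near the 45.4% of all protein-coding genes, with wide intervals.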

How the data were processed

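Peak lists came from 2 BDH1-FLAG samples, 1 list per sample. Per the submitters' processing notes, the build was TAIR10 and the tools named were Bowtie2 2.5.2, SAMtools, bedtools 2.31.1 and MACS2 2.2.9.1. The control library, the parameters and the read filters are not given in the sources used here. Each deposited peak has an interval, a summit, a score, a linear ratio named fold enrichment, and p- and q-values as −log10. The score and the −log10 p deposited by the authors were not used, and fold enrichment served only to describe and order peaks within a list. The lowest −log10 q was 1.32 in replicate 1 and 1.31 in replicate 2.

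Genes came from the RefSeq table of TAIR10.1, which gives no strand. Its match to the lists was checked: 41.2% of summits in replicate 1 and 42.3% in replicate 2 lay within 250 bp of a protein-coding gene end, against 21.9% to 23.5% after shifts of 2000 bp or more. No coordinates of the table are printed. Distances are gaps between annotated ends. Base coverage counted bases under peaks of both lists, and other bases were weighted to the distance classes of tRNA bases. Shares have exact Clopper-Pearson 95% intervals, and a count of 0 is given with the limit of 3 counts of the total. No test across genes was run. Overlap and gap functions were tested on simulated peaks placed on 200 tRNA genes, of which 200 were recovered (Python 3.11.15, pandas 2.3.3, numpy 2.4.6, scipy 1.17.1, matplotlib 3.10.9).

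The set of genes, the gene lists and the rules were chosen with earlier results of these data known. Named were the 10 tRNA genes with the highest mean fold enrichment, the isolated genes with a peak, the arrays of 5 or more genes and the listed pathway genes, and the other named genes were chosen after their values were seen. The table gives no descriptions, so pathway genes were found by identifier, symbol and synonym. No sequence was used here, so the planned search for short motifs was not run. Alternatives covered stricter thresholds, either list alone, other overlap rules and other distances.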

Additional observations from a re-analysis of the deposited data

How the results depend on the processing

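Single tRNA genes near coding had the highest share of the 4 classes and arrayed genes away from coding none under both stricter thresholds, either list alone and both other overlap rules. Under the summit rule isolated genes were nearly level with single genes near coding, at 4.84% against 5.08%, and arrayed genes near coding had none either. A −log10 q of at least 5 gave 14.1% of all tRNA genes, 2.67% of arrayed, 18.9% of near-coding and 3.23% of isolated ones, 50.2% of neighbouring protein-coding genes, and 93.2% of tRNA peaks on a protein-coding gene. At 10 these were 7.68%, 1.33%, 10.3%, 1.61%, 19.4% and 97.9%. There tRNA genes stood level with all nuclear genes (7.65%) in place of below them. A summit within 100 bp of the gene in both lists gave 3.84%, 0%, 4.62%, 4.84%, 57.9% and 54.2% in the same order, with 32.9% of all nuclear genes. There isolated genes stood slightly above near-coding ones, arrayed members of that class included. With 50% of the gene covered, arrayed genes stood at 3.33%, isolated ones at 8.06% and neighbouring genes at 6.04%, and all tRNA genes at 16.6% against 6.56% of all nuclear genes, so that order turned; this rule favours short genes. One list alone gave from 24.5% to 30.1% of all, 4.67% to 5.33% of arrayed, 31.9% to 39.6% of near-coding and 12.9% of isolated tRNA genes, 67.5% to 71.9% of neighbours and 79.1% to 85.1% of peaks on a protein-coding gene. An array distance of 500 bp gave 2.92% of arrayed and 9.38% of isolated genes, and 2000 bp gave 4.91% and 10.0%. A coding distance of 250 bp gave 9.52% of isolated genes and 28.9% of near-coding ones. At 1000 bp these were 17.2% (5 of 29, interval 5.85% to 35.8%) and 24.5%, so the classes were not told apart at that distance. Matching other bases also for sides and the neighbour's peak, chosen after seeing the data, gave 6.59% in place of 4.16%. The causes of these shifts were not tested. For both stricter thresholds and both other overlap rules, the share of protein-coding genes farther from tRNA genes is not given. The higher share of neighbouring protein-coding genes is thus shown only for the main rule and for either list alone. No paired analysis was possible because only 1 group was analysed. Depth is unknown, so a tRNA gene without a peak is not shown to lack BDH1.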
